A study of Mus musculus with 36 samples.

Results

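Among the populations sorted from the adult mouse subependymal zone, 1 is labelled only as Other, and its transcripts were set here against the equally weighted mean of the 7 populations that carry a name. Other had 3 libraries and the named populations had 25, of 36 libraries in the series. The named populations were qNSC, pNSC, aNSC and NPC1, with 4 libraries each, and NPC2, NB1 and NB2, with 3 each. The labels do not say what cell types Other holds. All 28 libraries came from brain subependymal zone of C57BL/6 mice aged 8 weeks, without any named allele, transgene or treatment, and cells were taken from homogenised tissue by flow cytometry. The gates that define each population, Other included, were not known here, and the labels do not say whether replicates were separate animals or pools. The remaining 8 libraries, from cultured neurosphere cells, were not used.

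The subependymal zone lines the lateral ventricles and holds the stem cells of the adult forebrain. Quiescent, astrocyte-like stem cells enter the cell cycle, give rise to fast-dividing progenitors, and these form neuroblasts that migrate to the olfactory bulb and become interneurons. The niche is crossed by a dense plexus of blood vessels, made of endothelial cells with a tight barrier and of mural cells (pericytes and smooth muscle) wrapped around them, and it also holds ependyma, microglia and cells of the oligodendrocyte lineage.

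The deposited values are log2 levels on a scale close to log2 CPM, so a difference of 1 is a 2-fold difference. Tests covered genes whose log2 level reached 0 or more in 3 or more libraries of any single population, 17788 of 19909 genes. A gene can pass this filter through Other alone, while a gene low in every population was not tested. For such genes a higher level and a separation in Other are in part set by the filter. With limma and Benjamini-Hochberg adjustment, 9654 genes differed between Other and the mean of the 7 at an adjusted p under 0.05, or 54.3% of those tested. Of all genes tested, 25.9% were higher in Other (4603 genes) and 28.4% were lower (5051 genes), so a count of members in a gene list has to be read against those shares. The median difference over all genes was -0.06. A much smaller share separated completely: 4.83% of genes (860) had all 3 Other libraries above all 25 others, and 2.83% (503) had all 3 below. Because the 7 populations differ greatly among themselves, a stricter comparison treated their 25 libraries as 1 group, whose spread then holds the differences between populations. It called 3742 genes, 1770 higher and 1972 lower, each also called in the main comparison in the same direction. It is cited below as the pooled reference where it changes a count by over 1.5 times.

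The 3 Other libraries resembled each other, with correlations across genes between 0.934 and 0.955 to the mean of the other Other libraries. Among the named populations, Other replicate 1 was nearest to NB2, with a correlation of 0.907. Other replicate 2 reached 0.852 with NB2, and Other replicate 3 reached 0.814 with NB2, 0.814 with NB1 and 0.818 with NPC1. These correlations are across the 17788 genes, which are not independent, and each library also shares its normalization with the rest. Other replicate 3 had the coarsest low values, with 55 distinct levels below its median against 161 and 184 in replicates 1 and 2, as fewer reads would give. Read totals are not given, so no counting error can be attached to a single value. The Other libraries also stood apart on the third principal component (7.387% of variance), at 49.94, 101.01 and 129.61, with the NB2 libraries between -89.16 and -74.59.

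**Figure D1:**
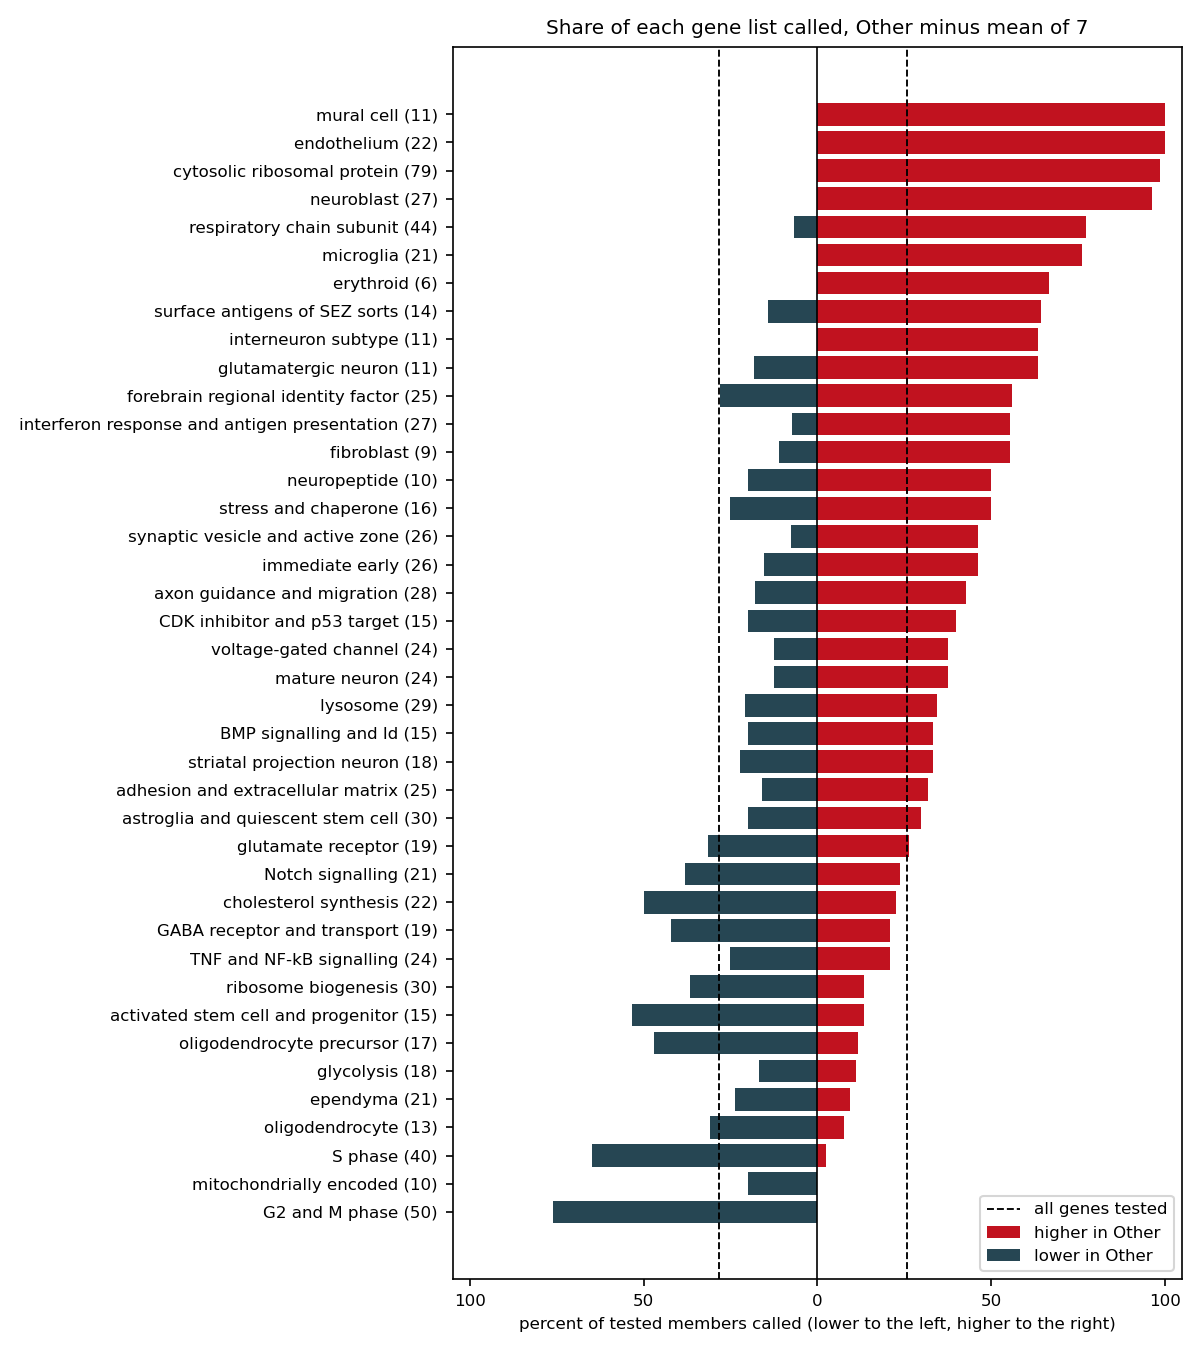
For each gene list with at least 5 tested members, bars give the percentage of members called lower in Other (left) and higher in Other (right) against the mean of 7 populations, with the number of tested members beside the name. The dashed lines mark the shares over all genes tested, 28.4% lower and 25.9% higher; endothelium, mural cell, ribosomal protein and neuroblast members lie almost wholly on the right and cell cycle members on the left.

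Transcripts of blood vessel endothelium set Other apart most clearly. All 22 measured genes of the endothelial marker list were higher in Other, and for 21 of them every Other library lay above every one of the 25 libraries of the named populations. These counts are in part set by the filter, which members such as Kdr and Emcn passed only through Other. The median difference of the list was 7.56 log2 units, or 5.05 when every level below 0 was set to 0, since many of these genes sit at a library's floor in the named populations. Their mean log2 level was 5.42, 6.74 and 6.56 in the Other libraries and between -2.42 and 0.47 in the 25 others. The summed level of the list ran from 2019 to 5153 in Other and from 84.6 to 432.4 elsewhere. In bulk samples such as these, more cells of a type and more RNA per cell cannot be told apart.

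Cldn5 (chr16:18776847-18778262, GRCm38, plus strand) encodes claudin 5, the main tight junction protein of the blood-brain barrier. Its log2 level was 8.06, 9.75 and 9.33 in the 3 Other libraries, and the 25 others had a lowest level of -4.92, a median of -0.30 and a highest of 1.84. The difference was 9.99 ± 1.14 (SE, limma adjusted p = 1.0e-07), or 8.52 with levels below 0 set to 0, and the groups did not overlap. Flt1 (chr5:147561604-147726011, minus strand), a receptor for vascular endothelial growth factor, stood at 7.13, 8.38 and 8.07 in Other. The other 25 libraries ran from -4.31 through a median of -0.94 to 2.03, all below Other (difference 8.99 ± 1.07, limma adjusted p = 1.8e-07). Kdr, the main signalling receptor for the same growth factor, was higher by 8.29 ± 0.93, or by 5.12 with levels below 0 set to 0. The list also held factors that set endothelial identity: Sox17 was higher by 8.80 ± 1.08 (5.53 with levels below 0 set to 0) and the ETS factor Erg by 3.60 ± 0.41. Adhesion genes of the endothelial junction were also higher, Cdh5 (VE-cadherin) by 7.60 ± 0.90 (3.84 with levels below 0 set to 0), Esam by 7.55 ± 0.75 and Pecam1 by 5.50 ± 0.58.

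Itm2a (chrX:107397099-107403376, minus strand), a membrane protein gene of the list, was measurable in every population and so does not depend on the floor. It stood at 8.82, 10.15 and 9.91 in Other, while the 25 others ran from 1.64 through a median of 2.64 to 4.14. The difference was 6.87 ± 0.30 (limma adjusted p = 3.3e-14). Slc2a1, the glucose transporter of the barrier, which astroglia also use, was at 8.11, 9.28 and 8.55 in Other and at 3.49, 5.31 and 8.07 (lowest, median, highest) elsewhere. It differed from the mean of the 7 by 3.14 ± 0.17, and its next highest population mean was 8.00. Ramp2, a partner of the adrenomedullin receptor, was the 1 member that overlapped: its levels of 7.002, 7.95 and 8.19 in Other lay beside a highest value of 7.31 elsewhere.

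Of the 15 largest separated increases whose mean log2 level in Other was 5 or more, 7 belong to the endothelial list (Cldn5, Ly6a, Ly6c1, Flt1, Sox17, Kdr and Emcn) and 2 to the mural list (Vtn and Rgs5). The others were Car4, a carbonic anhydrase (9.52 ± 1.14), the amino acid transporter Slc38a5 (9.40 ± 0.90), the caveolar protein Cavin2 (8.82 ± 0.91), the organic anion transporter Slc22a8 (8.47 ± 1.22), the small heat shock protein Hspb1 (8.36 ± 0.76) and the TGF-beta family receptor Acvrl1 (8.22 ± 0.77). Ly6a and Ly6c1 have close relatives in a gene cluster, and Sox17 and Acvrl1 overlap antisense models, so reads of these 4 could be shared. The library kit does not mark strand. Some of the 15, among them Cavin2, Kdr and Emcn, passed the filter only through Other, so their separation is in part set by it. The order of these 15 genes rests in part on floor values: with levels below 0 set to 0, Cldn5 had a difference of 8.52, Slc38a5 6.07, Cavin2 5.44 and Kdr 5.12, while Itm2a, outside the 15, stayed at 6.87.

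The promoters of 2 of these genes are shown because they have the largest differences among endothelial members whose 1 promoter in the table lacks or holds GGAAGT, the core of ETS family sites. They were chosen after the matches were seen. Each run is the 250 bases before the RefSeq start site on GRCm38.p6, read 5′ to 3′ on the gene's strand, and capitals mark the match. Cldn5 is chr16:18776597-18776846 on the plus strand and Flt1 is chr5:147726012-147726261 on the minus strand.
Cldn5: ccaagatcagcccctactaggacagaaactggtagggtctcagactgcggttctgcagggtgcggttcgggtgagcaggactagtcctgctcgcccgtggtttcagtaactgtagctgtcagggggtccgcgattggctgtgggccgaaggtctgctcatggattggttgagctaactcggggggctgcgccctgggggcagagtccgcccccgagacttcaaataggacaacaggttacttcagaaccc
Flt1: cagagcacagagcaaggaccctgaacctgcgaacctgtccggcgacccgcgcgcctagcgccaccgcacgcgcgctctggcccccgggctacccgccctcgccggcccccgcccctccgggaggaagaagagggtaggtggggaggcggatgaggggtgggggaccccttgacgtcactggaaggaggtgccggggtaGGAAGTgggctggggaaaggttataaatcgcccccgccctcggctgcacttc
On either strand GGAAGT was found in 7 of 19 promoters belonging to 14 of the 22 endothelial genes (36.84%), in 0 of 6 promoters of mural genes, and in 19.74% of all 32851 promoters. A match is a run of letters and not evidence of binding, and the Cldn5 window holds none although its difference was the largest of the list.

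Mural cell transcripts were also higher, all 11 of those measured, and 8 of them had no overlap with the 25 libraries. The median difference was 4.93, or 3.74 with levels below 0 set to 0. Vtn (chr11:78499091-78502324, plus strand), which encodes vitronectin and is a marker of brain pericytes, had the largest difference among the 15 genes above, 10.27 ± 1.24 (limma adjusted p = 2.2e-07). It stood at 6.54, 10.69 and 9.54 in Other against a range from -4.97 through a median of -0.95 to 3.68, without overlap. The pericyte gene Rgs5 was at 4.22, 6.75 and 6.34 against a highest value of 1.94, and the contractile gene Acta2 at 4.14, 5.83 and 4.89 against 1.301. The classical pericyte receptor Pdgfrb behaved differently: it was at 1.95, 5.67 and 3.94 in Other, but the highest population mean was that of qNSC, 7.11. It passed the test against the mean of the 7 (2.19 ± 0.76, limma adjusted p = 0.017), as did Notch3 (1.95 ± 0.74, adjusted p = 0.028, or 0.88 with levels below 0 set to 0), also highest in qNSC. Among other settings, both calls ended without Other replicate 2, without Other replicate 3 and against the pooled reference. The mural list counted 8 of 11 members higher in each of those 3.

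The vascular signal varied among the 3 Other libraries. Replicate 1 had the lowest endothelial mean (5.42) and the lowest mural mean (2.66, against 5.41 and 4.46), and its summed mural level of 158.9 lay inside the qNSC range of 139.9 to 183. That library also had the highest neuroblast list mean and the closest likeness to NB2. Endothelial calls did not rest on any 1 Other library, since all 22 members were called higher without each of them in turn.

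Fibroblast markers were mixed. Of 9 measured, 5 were higher and 1 lower, and 4 of the 5 lay above all 25 libraries. Dcn (decorin) stood at 2.86, 5.28 and 4.04 against a highest value of 1.93 (7.53 ± 1.02, limma adjusted p = 1.2e-06, or 3.92 with levels below 0 set to 0), and Apod at 4.93, 6.72 and 7.25 against 3.46. The main collagen gene Col1a1 was at -0.62, -0.55 and -0.83 in Other and highest in qNSC, and it was not called. Ptgds, a prostaglandin synthase of leptomeninges, was lower (-1.75 ± 0.39), but was not called against the pooled reference.

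**Figure D2:**
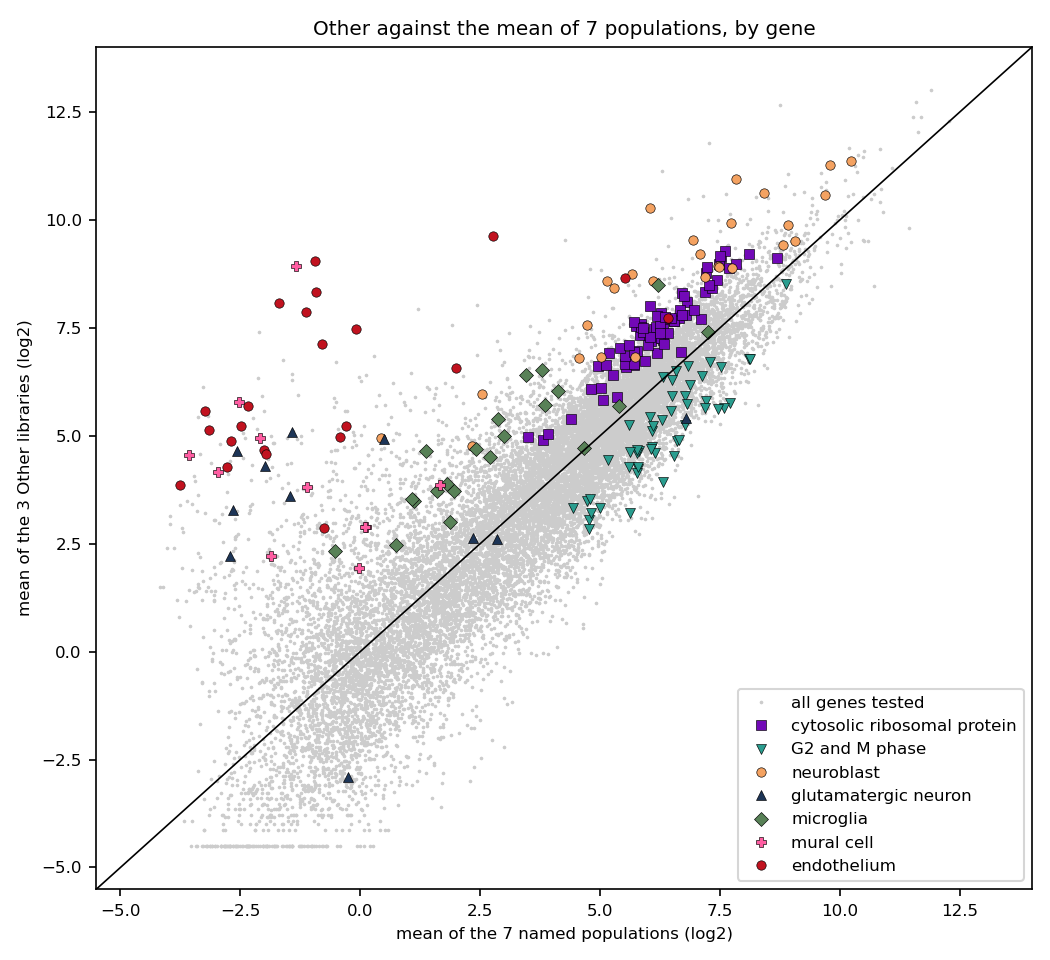
Each point is a gene, with the mean log2 level of the 7 named populations on the x axis and the mean of the 3 Other libraries on the y axis; members of 7 lists are coloured and the line marks equality. Endothelial and mural genes lie far above the line at low levels of the mean of 7, neuroblast and ribosomal protein genes moderately above it, and G2 and M phase genes below it.

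Other also carried the transcripts of immature neurons. Of 27 neuroblast genes measured, 26 were higher in Other than in the mean of the 7, none was lower, and Dlx1 was not called. The median difference was 2.204. NB2 had the highest mean for 20 of the 27 and Other for 4 (Stmn2, Igfbpl1, Tubb3 and Tubb2b), so most of these genes were high in Other without being highest there. The list mean was 9.02, 8.70 and 8.50 in Other, 9.25 to 9.37 in NB2 and 8.12 to 8.19 in NB1. Against the pooled reference, 7 of the 27 remained past the threshold.

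Stmn2 (chr3:8509360-8561606, plus strand), a microtubule regulator of growing axons, was at 10.41, 10.10 and 10.31 in Other. Elsewhere it ran from 2.11 through a median of 5.36 to 10.33, with an NB2 mean of 9.99 (difference 4.22 ± 0.33, limma adjusted p = 3.3e-10). Igfbpl1 (chr4:45809468-45826923, minus strand) was the only member to separate: it stood at 8.76, 8.53 and 8.45 against a highest value of 8.19. For Dcx, the microtubule protein that defines migrating neuroblasts, Other was at 9.21, 8.47 and 8.10 and the NB2 mean was 9.52. The GABA-synthesising enzymes followed the same order, Gad2 at 8.92, 8.72 and 8.60 with an NB2 mean of 9.06, and Gad1 at 8.00, 7.50 and 7.20 with an NB2 mean of 8.68. Prokr2, the receptor that guides neuroblasts to the olfactory bulb, was higher than the mean of the 7 by 4.505 ± 1.01 but reached 5.46, 4.93 and 4.42 against an NB2 mean of 7.94. Other was not tested against NB2 alone.

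Genes of the glutamatergic lineage were higher in Other than in any named population. Neurons born in the subependymal zone are mostly GABAergic, and a dorsal minority passes through a glutamatergic sequence in which Neurog2, Eomes, Neurod1 and Tbr1 act one after another. Of 11 list members tested, 7 were higher, and these same 7 had all 3 Other libraries above all 25 others. The filter in part sets these counts, since Neurod1 passed it only through Other. Neurod1 (chr2:79452521-79456751, minus strand) was at 3.89, 4.95 and 5.09, while the 25 others ran from -4.92 through a median of -3.003 to 0.01. The difference was 7.21 ± 0.76 (limma adjusted p = 3.1e-08), or 4.64 with levels below 0 set to 0. Slc17a6, the vesicular glutamate transporter VGLUT2, stood at 4.76, 5.29 and 5.21 against a highest value of 1.90 (6.51 ± 0.99, limma adjusted p = 5.7e-06).

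The other 5 members showed the same separation. Neurog2 stood at 2.17, 3.83 and 3.84 against a highest value of 1.41. Eomes, which marks intermediate progenitors, was at 4.82, 5.24 and 4.67 against 3.73. Tbr1 was at 3.45, 3.51 and 3.86 against 2.25, Neurod2 at 1.24, 3.23 and 2.17 against 0.70, and Neurod6 at 3.32, 4.89 and 4.66 against 1.25. With levels below 0 set to 0, the differences were 3.03 for Neurog2, 2.13 for Neurod2 and 4.05 for Neurod6. All 7 calls held without each Other library in turn and against the pooled reference. Other members behaved otherwise: Lhx2, a factor of cortical progenitors, was lower (-1.39 ± 0.16), Fezf2 and Cux2 were not called, and Slc17a7, Slc17a8 and Emx1 were too low to test. In all 2 of the 11 were lower, and the pooled reference called 0 of them. Neurod1 overlaps the gene Cerkl and an antisense model, and Eomes an antisense model, so their reads could be shared.

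The promoter of Neurod2 is shown because it is the most strongly differing member of the list whose single promoter matches CAGATG, an E-box bound by proneural factors. It was chosen after the matches were seen, and lies at chr11:98329646-98329895 on the minus strand.
Neurod2: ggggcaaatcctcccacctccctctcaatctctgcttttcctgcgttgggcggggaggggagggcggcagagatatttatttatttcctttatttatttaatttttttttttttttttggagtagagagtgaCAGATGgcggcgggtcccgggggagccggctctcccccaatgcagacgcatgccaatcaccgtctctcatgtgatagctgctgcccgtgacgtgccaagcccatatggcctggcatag
On either strand CAGATG was found in 4 of 17 promoters of 13 glutamatergic genes (23.53%), in 5 of 29 promoters of 18 neuroblast genes (17.24%) and in 14.44% of all 32851 promoters.

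Of the 11 interneuron subtype genes tested, 7 were higher and none was lower. Npy, neuropeptide Y, was at 3.74, 4.34 and 4.97 in Other against a highest value of 1.69 (5.87 ± 0.93, limma adjusted p = 9.9e-06). Calb2, the calretinin gene, was at 3.63, 3.99 and 4.56 against 3.12. These were the 2 members that separated. Lhx6, a factor of interneurons from the medial ganglionic eminence, differed most among the replicates of Other (5.70, 3.50 and 2.72) and overlapped NB2, whose mean was 2.86. Pvalb, Sst and Cck were too low to test.

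Axon guidance and regional identity genes showed both directions, beside 25.9% higher and 28.4% lower over all genes tested. Of 28 guidance genes, 12 were higher and 5 lower. Sema3c (chr5:17574281-17730268, plus strand), a secreted guidance cue, was at 5.73, 6.30 and 5.64 in Other, with a lowest value of -4.75, a median of 1.64 and a highest of 4.27 elsewhere (4.75 ± 0.97, limma adjusted p = 0.00020). The netrin receptor gene Unc5d (3.70 ± 0.63) and the semaphorin co-receptor gene Nrp1 (1.83 ± 0.28) also separated, whereas Slit2 (-1.62 ± 0.32) and Epha3 (-1.56 ± 0.28) were lower. Among 25 forebrain regional factors, 14 were higher and 7 lower. Pax6, a dorsal factor also used by dopaminergic interneurons of the olfactory bulb, separated narrowly at 6.85, 7.28 and 7.09 against a highest value of 6.61 (1.00 ± 0.11, limma adjusted p = 6.6e-08), as did Zic2 (4.71 ± 0.84, or 2.01 with levels below 0 set to 0). Six3 (-2.55 ± 0.22), Gsx2 (-2.58 ± 0.28) and Emx2 (-1.67 ± 0.20) were lower, and Other had the lowest mean of the 8 populations for each of these 3. Against the pooled reference, 6 guidance genes were higher and 1 lower, and 10 regional factors were higher and 3 lower.

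Transcripts of mature neurons and synapses were not uniformly high. In the mature neuron list 9 of 24 members were higher and 3 lower, beside 25.9% and 28.4% of all genes tested. Stmn3 alone separated, at 9.79, 9.93 and 10.26 against a highest value of 9.41 (2.75 ± 0.23, limma adjusted p = 8.3e-10), and Gap43, a growth cone protein, was higher by 2.58 ± 0.34. Rbfox3, Nefl and Camk2a were not called. Of 26 synaptic vesicle genes, 12 were higher and 2 lower, and NB2 had the highest mean for 13. Their count of 12 fell to 5 without Other replicate 3, to 8 without Other replicate 1 and to 2 against the pooled reference.

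**Figure D3:**
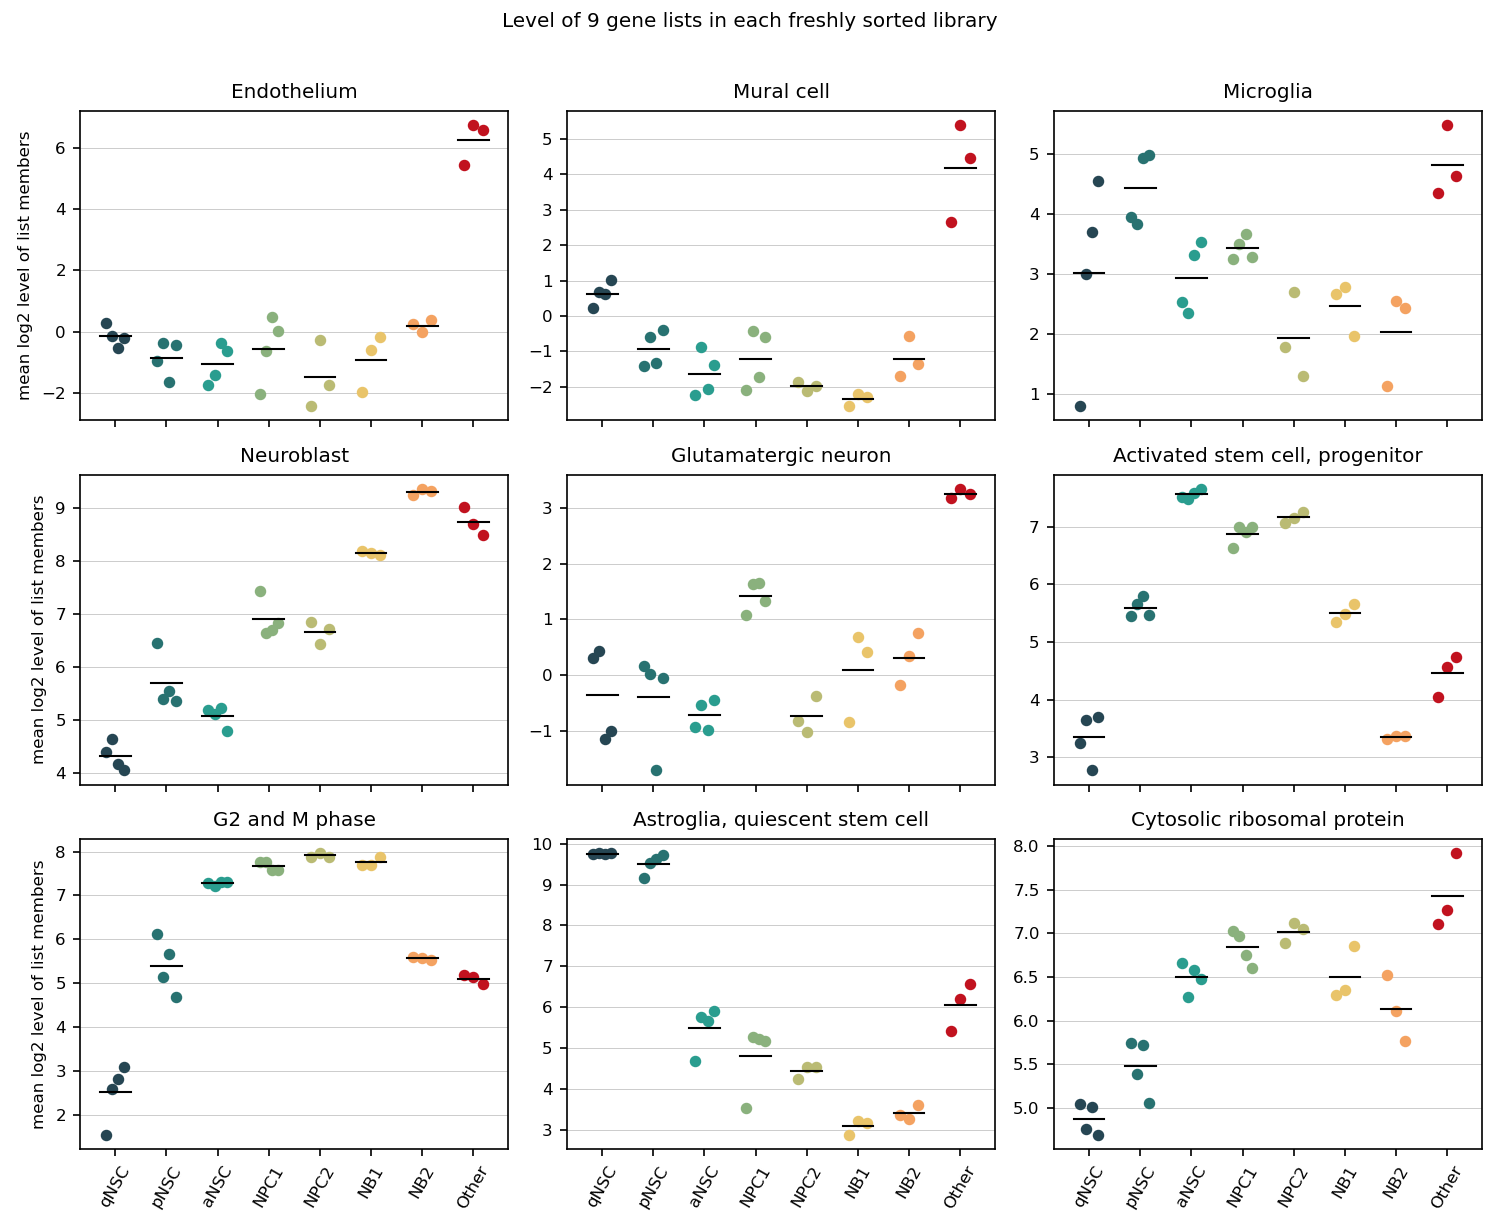
Each point is a library and gives the mean log2 level of the measured members of a gene list, with populations on the x axis and a bar at the population mean. The Other libraries stand above all 25 others for endothelium, mural cells and glutamatergic neurons, close to NB2 for neuroblast genes, and between qNSC and the dividing populations for G2 and M phase genes.

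Progenitor genes were lower in Other than in the mean of the 7. Of 15 activated stem cell and progenitor genes, 8 were lower and 2 higher, with a median difference of -1.02. The list mean was 4.045 to 4.745 in Other, above 2.77 to 3.70 in qNSC and 3.32 to 3.37 in NB2 and below the other named populations. Other had the lowest mean of the 8 populations for 4 of the 15 genes. Egfr (chr11:16752203-16918158, plus strand), the growth factor receptor of activated stem cells and progenitors, was at 3.41, 3.01 and 4.39 in Other. The 25 others ran from 3.65 through a median of 7.32 to 9.998, so Other overlapped only with their lowest values, and the NB2 mean was 3.73 (difference -3.44 ± 0.17, limma adjusted p = 2.8e-13). Also lower were the ventral progenitor factors Gsx1 (-3.82 ± 0.34) and Olig2 (-2.98 ± 0.38) and the Notch ligand Dll1 (-2.08 ± 0.56). Nes, the intermediate filament of neural progenitors, which endothelium can also express, was higher (1.34 ± 0.37, limma adjusted p = 0.0037), with 5.21, 5.90 and 6.01 against a highest value of 5.56. The pooled reference kept 4 of the 8 lower calls and did not call Nes.

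Cell cycle genes lay between the extremes. Of 50 genes of G2 and M phase, 38 were lower and none higher, and the median difference was -1.24. Yet none of the 50 lay below all 25 libraries, because qNSC had the lowest mean for each of the 50. The list mean was 5.19, 5.13 and 4.98 in Other, 5.53 to 5.59 in NB2, 1.55 to 3.08 in qNSC and 7.88 to 7.97 in NPC2. Mki67, which encodes the proliferation antigen Ki-67, was at 5.04, 4.60 and 4.98 in Other, against 2.16, 7.23 and 8.63 (lowest, median, highest) elsewhere (-1.72 ± 0.28, limma adjusted p = 1.3e-05). Cyclin genes were lower too, Ccna2 by -1.95 ± 0.18 and Ccnb1 by -1.51 ± 0.15, while Birc5 (0.04 ± 0.22) and Cenpa (-0.08 ± 0.24) were not called. In S phase, 26 of 40 genes were lower and 1, Gins1, was higher by a call that ended without each Other library in turn, with Mcm4 at -1.70 ± 0.12 and Ccne2 at -1.73 ± 0.22. Against the pooled reference no S phase or G2 and M phase gene was called, so these calls describe a position against the average and not against each population.

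Inhibitors of the cycle were higher in part. Of 15 cyclin-dependent kinase inhibitor and p53 target genes, 6 were higher and 3 lower, beside 25.9% and 28.4% of all genes tested. Cdkn1b (chr6:134920401-134925513, plus strand), which encodes p27, stood at 7.23, 7.08 and 7.21 against a lowest value of 4.98, a median of 5.68 and a highest of 6.79, without overlap (1.37 ± 0.21, limma adjusted p = 8.0e-06). Cdkn1a (1.77 ± 0.31) and Cdkn1c (1.86 ± 0.46), which encode p21 and p57, were also higher but overlapped the named populations, and the pooled reference kept 1 of the 6 higher calls. In contrast Ccng1, a p53 target, was at 4.66, 4.24 and 4.57 against a lowest value of 4.80, below all 25 (-1.19 ± 0.13, limma adjusted p = 5.0e-08).

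Astroglial and quiescent stem cell genes split by member. Of 30 tested, 9 were higher and 6 lower, beside 25.9% and 28.4% of all genes tested, and none separated. The median difference of the list was 0.16. The list mean was 5.43, 6.20 and 6.56 in Other, 9.74 to 9.77 in qNSC and 3.27 to 3.60 in NB2. The lower members included the glutamate transporter Slc1a3 (-1.41 ± 0.18), Fgfr3 (-1.76 ± 0.24) and the glial factor Sox9, which was at 6.47, 6.399 and 6.42 (-1.56 ± 0.10, limma adjusted p = 9.9e-12). Gfap and Aqp4 were not called. Higher members included the transcriptional inhibitor Id3 (chr4:136143497-136145755, plus strand), at 6.45, 8.204 and 8.35 against -2.04, 3.62 and 8.29 elsewhere (3.74 ± 0.49, limma adjusted p = 8.8e-07), and Hes1 (2.99 ± 0.61). Id3, Id1 (3.00 ± 0.44) and Hes1 are also expressed by endothelium. Each was lowest in Other replicate 1, as were both the endothelial list and the astroglial list itself. The part of vascular cells in these values was not tested. The count of higher members was 3 without Other replicate 3, 6 without replicate 2 and 0 against the pooled reference, which also called none of the 6 lower.

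Notch pathway genes went in both directions among ligands, receptors and targets. Among ligands, Jag2 was higher and separated, at 3.38, 3.55 and 4.34 against a highest value of 2.89 (3.14 ± 0.67, limma adjusted p = 0.00034), while Jag1 (-2.51 ± 0.45) and Dll1 were lower. Among receptors Notch1 was lower (-1.16 ± 0.23) and Notch3 higher. The fringe enzyme gene Lfng (-3.41 ± 0.38) and the feedback gene Nrarp (-1.98 ± 0.15) were lower, as was the stem cell target Hes5 (-1.27 ± 0.27). In contrast the vascular target Heyl was higher (3.06 ± 0.71, or 1.38 with levels below 0 set to 0). In all, 5 of 21 members were higher and 8 lower, beside 25.9% and 28.4% of all genes tested. Against the pooled reference the counts of members were 1 and 4.

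Microglial genes were higher in Other without separating from the named populations. Of 21 measured, 16 were higher and none lower, with a median difference of 2.06 and 0 members above all 25 libraries. Their summed level was 863.4 to 1543 in Other and 694.1 to 1285 in pNSC, the nearest population. Trem2 (chr17:48346401-48354147, plus strand), a microglial lipid receptor, was at 3.43, 5.35 and 5.15 against -2.18, 1.76 and 3.95 elsewhere (3.28 ± 0.70, limma adjusted p = 0.00032). The complement gene C1qc (2.96 ± 0.79) and the homeostatic genes Tmem119 (2.52 ± 0.75) and P2ry12 (1.86 ± 0.31) were also higher. The microglial receptors Csf1r (0.07 ± 0.47) and Cx3cr1 (0.16 ± 0.12) were not called, nor was the pan-leukocyte gene Ptprc (1.70 ± 0.98). The count of 16 fell to 9 without Other replicate 2, where Tmem119 was not called, and to 7 against the pooled reference.

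Interferon response and antigen presentation genes were higher in part, 15 of 27 with 2 lower and a median difference of 1.76. B2m (chr2:122147686-122153083, plus strand), the light chain of MHC class I, was at 7.21, 8.39 and 8.28 in Other against 3.18, 5.42 and 7.40 elsewhere (2.70 ± 0.25, limma adjusted p = 3.5e-09), and only its replicate 1 overlapped. Ifi35 separated, at 3.62, 4.95 and 5.07 against a highest value of 2.28 (4.38 ± 0.77, limma adjusted p = 3.8e-05), as did the immunoproteasome subunit Psmb9 and Oas1a. The signalling gene Irf1 was not called, and Stat2 was lower (-1.19 ± 0.21). Ifi35, Irf7 and Psmb8 overlap antisense models. The list mean was 3.41, 4.35 and 4.02 in Other, below 4.56 in qNSC replicate 2 and 4.38 in pNSC replicate 2. Replicate 2 was also the highest library within aNSC, NPC1, NPC2 and NB1, but the lowest within NB2. Endothelial and microglial genes were higher in the same Other libraries. Neither their part in this result nor that of the replicate number was tested. The count of 15 was 9 without Other replicate 2 and 8 against the pooled reference.

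Red cell genes separated the Other libraries from each other. Hbb-bs was at 4.42, 5.20 and 7.67 in Other and Hba-a1 at 3.02, 4.74 and 6.99, with replicate 3 the highest for both. The summed level of the list was 49.9, 86.9 and 488.7, against 50.99 to 106.1 in NB2. All 4 globin genes passed the test, and none did without Other replicate 3 or against the pooled reference. Hba-a1 and Hba-a2 are near-identical copies, so their reads cannot be assigned with certainty.

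Among markers of other niche cells, oligodendrocyte precursor genes were lower more often than the 28.4% of all genes, and oligodendrocyte and ependymal genes were lower at about that share. Of 17 precursor genes 8 were lower and 2 higher, with Olig1 at -1.78 ± 0.44 and Ptprz1 at -1.90 ± 0.11. The 2 higher members, Cspg4 (2.77 ± 0.97) and Vcan (1.75 ± 0.26), are shared with pericytes and with neuroblasts. In the oligodendrocyte list 4 of 13 members were lower, while Mal was the 1 member higher and separated at 4.20, 5.31 and 5.93 against a highest value of 2.35 (7.31 ± 0.92, limma adjusted p = 4.4e-07). Ependymal genes were lower for 5 of 21, among them the ciliogenesis factor Foxj1 (-2.45 ± 0.79, or -1.32 with levels below 0 set to 0) and Spag16 (-2.91 ± 0.38), and higher for Mia and Rarres2. Calls were lost for Cspg4 without Other replicate 2 or 3, for Foxj1 without Other replicate 2 and for Rarres2 without Other replicate 3. Olig1, Cspg4, Foxj1 and Rarres2 were not called against the pooled reference, whereas Ptprz1, Vcan, Mal, Spag16 and Mia were. Of the choroid plexus list only Otx2 was tested and it was not called, and Ttr was too low to test.

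**Figure D4:**
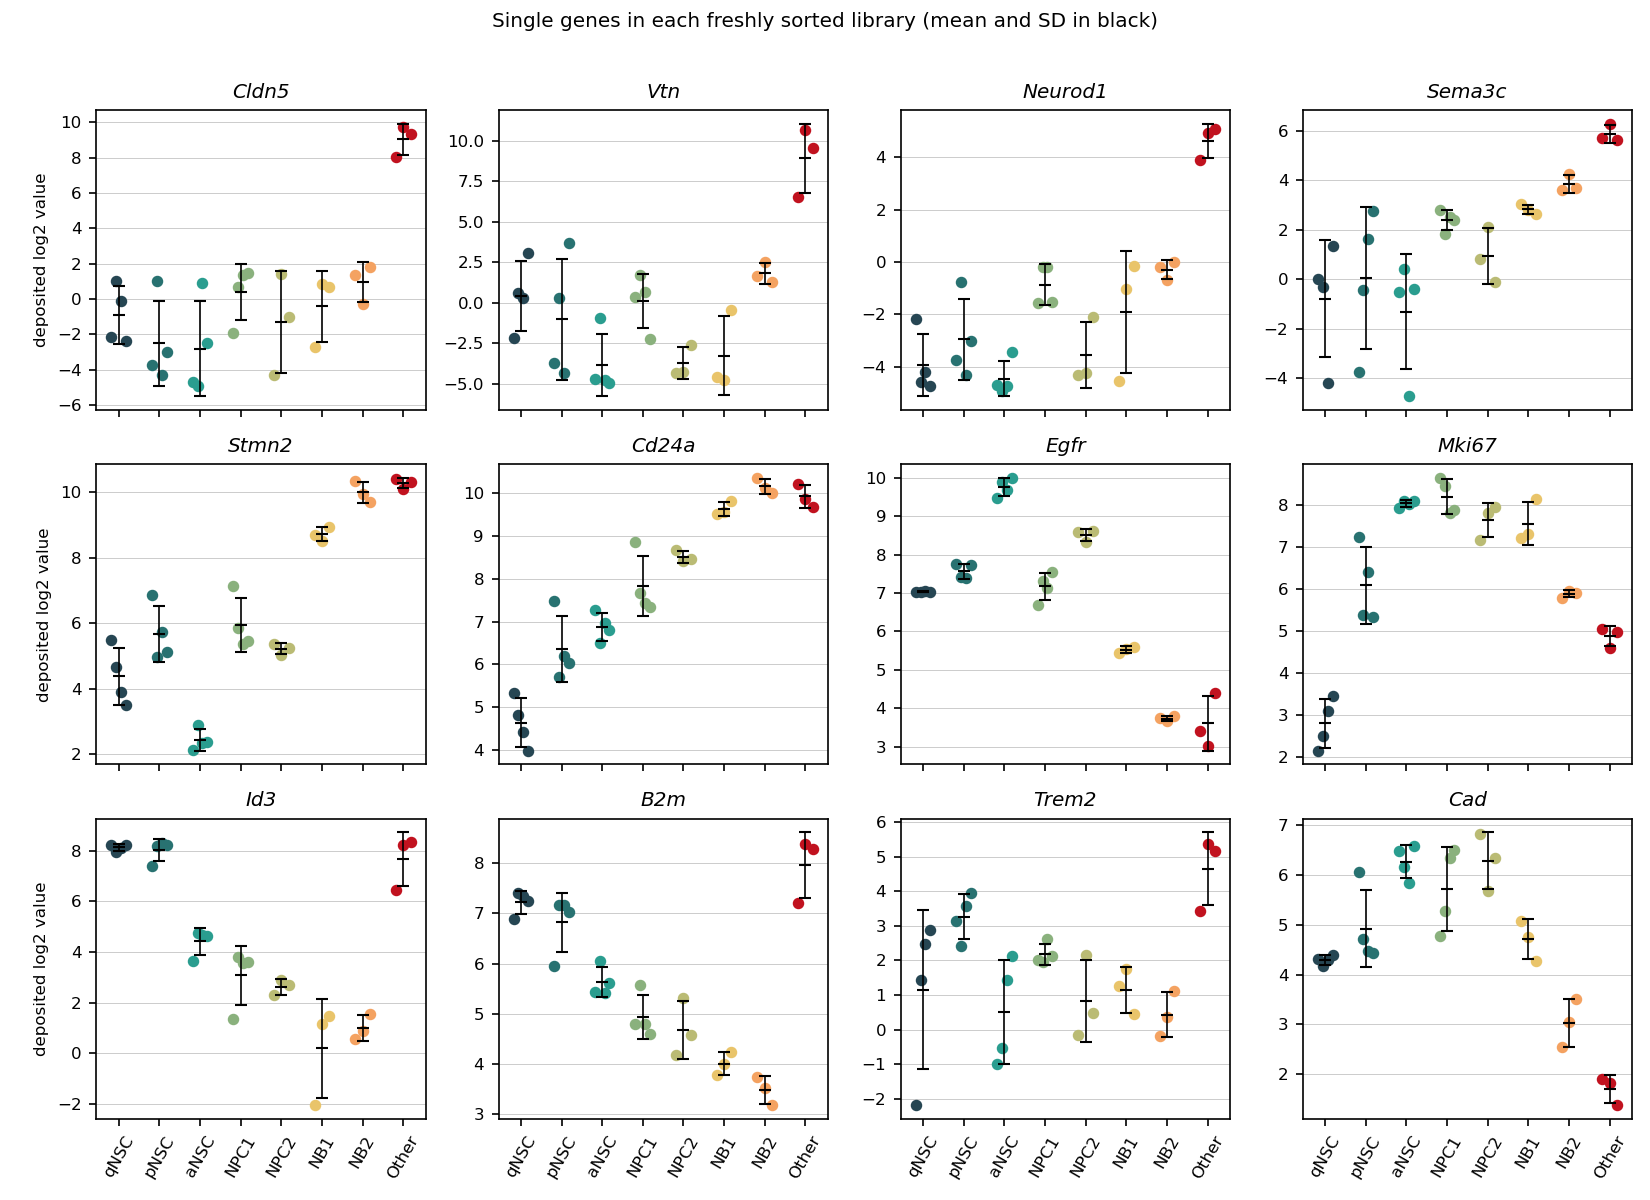
Log2 levels of 12 genes in every library, grouped by population on the x axis; points are libraries and black marks give the population mean ± SD. Cldn5, Vtn, Neurod1 and Sema3c stand above all 25 other libraries in Other, Cad stands below them, Stmn2, Cd24a and Egfr in Other lie near NB2, and Mki67 lies between qNSC and aNSC.

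Ribosomal protein genes were higher almost without exception, 78 of 79, and 30 of them separated. The exception, Rpl5, differed by 0.26 ± 0.14 (limma adjusted p = 0.11). The differences were modest, from 0.26 to 1.98 with a median of 1.21, and Other had the highest mean of the 8 populations for 70 of the 79. Rpl37a (chr1:72711290-72713813, plus strand) was at 7.61, 7.77 and 8.64 against 4.12, 6.24 and 7.03 elsewhere (1.98 ± 0.21, limma adjusted p = 4.4e-08). Ribosomal protein levels were also raised from log2, summed and set against the summed deposited levels of each library. The 79 genes made up 1.366%, 1.545% and 2.368% in the Other libraries, 0.2583% to 0.3148% in qNSC and up to 1.365% in NPC2. These are shares of normalized levels and not of reads. The pooled reference called 43. Many of these genes have processed pseudogenes with near-identical sequence, and they are short: their median exonic length was 1770 bases, against 3118.5 for all genes higher in Other and 4327 for all genes lower. The 6414 other genes between their 10th and 90th length percentiles had a median difference of 0.09, and among all genes of 1631 to 2334 bases 34.8% were higher and 20.5% lower. The part of length in the ribosomal protein values was not tested.

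Subunits of the respiratory chain encoded in the nucleus were higher for 34 of 44 and lower for 3, with 9 separated and a median difference of 0.59. Cox4i1 was at 9.45, 9.81 and 10.25 against a highest value of 9.05 (1.33 ± 0.15, limma adjusted p = 9.1e-08). The 3 lower members were Sdha (-0.78 ± 0.10) and Sdhc (-0.75 ± 0.11), of succinate dehydrogenase, and Ndufs1 (-0.44 ± 0.10). Ribosome biogenesis factors did not share the direction of the ribosomal proteins: 4 of 30 were higher and 11 lower, with Pes1 at -1.10 ± 0.16 and Nop56 at -0.78 ± 0.11. The count of 11 was 2 against the pooled reference. In the ribosomal protein and respiratory chain lists Other replicate 3 tended to be highest, and it is also the library with the coarsest low values; the part of depth in these levels was not tested.

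Genes lower in Other than in all 25 libraries came from several processes. Among such genes whose mean of the 7 was 5 or more, the 15 largest decreases ran from -3.33 to -2.16. Gene models without a proper name were left out. Cad (chr5:31054780-31078479, plus strand), the enzyme that starts pyrimidine synthesis, was at 1.91, 1.83 and 1.38 against 2.54, 4.77 and 6.82 (-3.33 ± 0.31, limma adjusted p = 3.6e-09). Next came the receptor kinase Tyro3 (-3.08 ± 0.24) and the Ras GTPase-activating protein Rasa3 (-2.96 ± 0.19). Smo, the transducer of Hedgehog signals, was at 3.01, 3.19 and 3.21 against a lowest value of 3.42 (-2.25 ± 0.22), and Dvl1, of the Wnt pathway, was lower by -2.48 ± 0.28. Others were the cell cycle phosphatase Cdc25b (-2.36 ± 0.24), the nucleotide enzyme Prps2 (-2.38 ± 0.17), the import and tRNA export factors Ipo5 (-2.29 ± 0.22) and Xpot (-2.54 ± 0.23), and the clock gene Nr1d2 (-2.16 ± 0.23). The remaining 5 were Igdcc4, Cluh, Maz, Gpam and Kat2a. Dvl1 and Cdc25b overlap genes on the opposite strand.

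Surface antigens used to sort cells of this niche placed Other on both sides. Of 14 tested, 9 were higher and 2 lower. The endothelial antigens Pecam1, at 4.05, 5.50 and 6.09 against a highest value of 2.60, and Mcam, at 2.73, 4.64 and 3.39 against 1.59, separated. Prom1 (CD133), found on stem cells and ependyma, separated narrowly, at 5.92, 6.44 and 5.88 against 5.84 (0.92 ± 0.17, limma adjusted p = 4.9e-05). Cd24a, carried by neuroblasts, was at 10.23, 9.88 and 9.69 with an NB2 mean of 10.16 (2.22 ± 0.27). The enzymes that make polysialic acid were higher, St8sia4 by 2.29 ± 0.44 and St8sia2 by 1.44 ± 0.30. Egfr and Slc1a3 were the 2 lower antigens, and Ptprc, Vcam1 and Cd9 were not called. Against the pooled reference Cd24a, St8sia4, St8sia2, Ncam1, Itga6 and Slc1a3 lost their calls, while Pecam1, Mcam, Prom1, Cd200 and Egfr kept them. Which antigens set the gates was not known here, so the part of the sort in these values was not tested.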

How the data were processed

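Libraries were made from poly(A) RNA of sorted cells (SMARTer Ultra Low, then Nextera XT), per the labels' protocols. Per the submitters' processing notes, tools included the aligner HISAT2, the counter featureCounts, limma for statistics, the read trimmers Trimmomatic and cutadapt, and FastQC, and builds were listed as mm10 and GRCm38. Versions were not given in the sources used here. For 36 libraries, the authors deposited log2 values of 19909 genes in a single table. No header states its unit. Values raised from log2 sum to 987637 to 987910 per library with medians of 3.53 to 3.56, as quantile-normalized log2 CPM would, so total RNA per cell and read depth are unknown. The 1770 blank lines were dropped, and 19863 identifiers matched GENCODE M21 (GRCm38), the source of coordinates.

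The table holds no counts, so the planned test for log2 values was used. The model, in limma 3.58.1 and R 4.3.3, had 1 mean per population over 28 libraries (empirical Bayes with trend and robust settings). Genes had a log2 value of at least 0 in at least 3 libraries of 1 population, no pseudocount was added, and calls used an adjusted p under 0.05. The script was tested on simulated data. The labels do not say that replicates were separate animals, so each p-value reflects variation among these libraries, which may be technical. Summaries used Python 3.11.15 and pandas 2.3.3.

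Members and the 43 gene lists (952 of 1037 entries found) were chosen with earlier results of these data known, so no list is independent evidence. Genes were named by a rule: the 15 largest separated differences each way with a mean of at least 5, up to 4 called members per list by p, the 3 most abundant members per marker list, and the surface antigens (211 genes). A further 77 members were added after their values were seen. Alternatives covered filters, floors, scaling, weights, the reference mean, the replicate number and each library. RefSeq promoters were on GRCm38.p6. Values of a few list members are not reported here; the list counts include them.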

Additional observations from a re-analysis of the deposited data

Results flagged for a closer look

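The mean log2 level of 13 gene lists and the number of genes at the floor were checked for a library far from the rest in the 4 populations with 4 libraries, 56 groups in all, by Dixon's ratio against its critical value of 0.829. Chance alone flags about 1 in 20 such groups. Both libraries that stood apart belong to the reference populations and not to Other, which has 3 libraries and was not checked. For the glutamatergic neuron list, pNSC replicate 3 stood at -1.704 and the other pNSC libraries between -0.04685 and 0.1587 (ratio 0.89). For the astroglia and quiescent stem cell list, NPC1 replicate 1 stood at 3.538 and the other NPC1 libraries between 5.173 and 5.264 (ratio 0.947). Without NPC1 replicate 1 the main comparison called 9631 genes, and without pNSC replicate 3 it called 9713, against 9654 with both.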

How the results depend on the processing

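Over 43 alternative settings, 160 of the 257 called named genes kept call and direction throughout, 97 lost the call in at least 1, and 0 reversed. The number of called genes (9654) moved by over 1.5 times in 2 settings. Requiring a mean log2 level of at least 4 left 8882 genes to test and 5682 calls, 2755 higher and 2927 lower. Treating the 25 named libraries as 1 group gave 3742 calls, 1770 higher and 1972 lower, where the spread holds differences between populations by construction. Leaving out each of 28 libraries gave 7662 (without Other replicate 3) to 10303 (without qNSC replicate 1) calls, 3708 to 4896 higher and 3954 to 5407 lower. Of the other settings, the calls were 9763 without a filter, 9818 with levels below 0 set to 0, 9612 after centring, 11863 with library weights, 9538 without trend and robust settings, and 9147 to 10161 when 1 population left the mean. Trf and Birc5, not called in the main comparison were called in the opposite direction: Trf at 0.69 with library weights (adjusted p = 0.0083, main -0.03), and Birc5 at -0.60 without qNSC in the mean (adjusted p = 0.026, main 0.04). With the replicate number as a block, 9561 genes were called, 4573 higher and 4988 lower, 9379 of them shared; deviations of same-numbered libraries with those of Other correlated between -0.08 and 0.14. The same number was the best match in 14 of 21 comparisons, a hint from the data that numbers may share something, but no population had all correlations over 0.1 and no label ties them, so the numbers were not used as pairs. The edgeR and DESeq2 alternatives were not run because the table holds no counts. Genes near a library's floor (-5.06 to -2.18) have differences that depend on it, as the values with levels below 0 set to 0 show.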

Other observations

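Other gene groups also differed in members. Of 26 immediate early genes 12 were higher and 4 lower: Ier3 was at 5.21, 6.59 and 6.57 in Other against a highest value of 2.95 elsewhere (4.74 ± 0.59, limma adjusted p = 3.6e-07), and Klf2, a flow-responsive factor of endothelium, at 6.32, 7.05 and 6.90 against 5.57 (3.35 ± 0.33, limma adjusted p = 1.1e-08). With the 25 named libraries as 1 group, 3 of the 12 were called higher. Fos was not called (0.67 ± 0.36), and Egr1 was lower (-0.99 ± 0.28), a call that ended without Other replicate 3. Of 16 stress and chaperone genes 8 were higher and 4 lower, with a median difference of 0.15. Hspa1a was higher by 3.45 ± 0.49 and Hspa1b by 2.61 ± 0.38, both above all 25 libraries. These 2 are near-identical copies. Of 25 adhesion and extracellular matrix genes 8 were higher and 4 lower, beside 25.9% and 28.4% of all genes, with a median difference of 0.18. The basement membrane gene Lama4 was higher by 4.22 ± 0.88 and Col4a1 by 2.25 ± 0.29, both above all 25 libraries, with Sparc higher by 3.80 ± 0.28, while Itgb8 was lower than all 25 (-1.17 ± 0.18).

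Sterol genes leaned the other way, with 11 of 22 cholesterol synthesis genes lower and 5 higher. Ebp, a sterol isomerase, was among the higher ones and separated, at 5.86, 6.05 and 6.20 against a highest value of 5.28 (1.74 ± 0.23, limma adjusted p = 6.9e-07). Of 19 genes for GABA receptors and transport, 8 were lower and 4 higher. The receptor subunits Gabra2 (-2.63 ± 0.46, or -1.55 with levels below 0 set to 0) and Gabra4 (-2.38 ± 0.34) were lower, and Gphn, the gephyrin scaffold gene, was at 8.34, 8.18 and 9.68 against a highest value of 7.68 (1.80 ± 0.17, limma adjusted p = 5.7e-09).

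Most of the remaining lists moved little as groups or in both directions, beside 25.9% higher and 28.4% lower over all genes tested. Of 29 lysosomal genes 10 were higher and 6 lower, and of 24 genes of TNF and NF-kB signalling 5 and 6. BMP signalling and Id genes counted 5 higher and 3 lower of 15, glutamate receptors 5 and 6 of 19, and striatal projection neuron genes 6 and 4 of 18. Against the pooled reference, Id1, Id2, Id3 and Bmpr1a of the BMP and Id list lost their calls. So did Bcl11b, Foxp1 and Foxp2 of the striatal list. Voltage-gated channels leaned higher, with 9 higher and 3 lower of 24 and a median difference of 0.997. So did neuropeptides, with 5 higher and 2 lower of 10 and a median difference of 1.22. The higher neuropeptide list members Chga and Pcsk2 were not called against the pooled reference. Glycolysis genes counted 2 higher and 3 lower of 18, and mitochondrially encoded genes 0 and 2 of 10. Of lymphocyte and neutrophil genes, 2 were tested and 1, Cd79a, was lower, and the 1 border macrophage gene tested, Stab1, was not called.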
